A study of Mus musculus with 12 samples.

Results

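Fatty acid oxidation breaks fatty acids down to acetyl-CoA inside mitochondria and, for some substrates, peroxisomes. The 31 genes described here were listed by name for their place in that pathway, and all probes annotated to them were read on all 12 arrays. Of the 31 genes 28 had a probe, 56 probes in all out of 46632, and 19 genes with 31 probes were bright enough to be tested, out of 7306 genes and 11650 probes in the whole series. Acsl1, Slc25a20 and Etfb were not analysed here. Hadhb was placed in the list with the lower signal of 1 of its probes in the constitutively active lines already known, so that difference is given as a description without a test.

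Long-chain fatty acids are first joined to coenzyme A by acyl-CoA synthetases (the Acsl genes) and carried into mitochondria by the carnitine shuttle of Cpt1a, Slc25a20 and Cpt2. Each turn of the cycle then takes a dehydrogenation by chain-length-specific acyl-CoA dehydrogenases (Acadvl, Acadl, Acadm, Acads), a hydration, a second dehydrogenation and a thiolytic cleavage. The trifunctional protein, made of the subunits encoded by Hadha and Hadhb, carries out the last steps for long chains, and the electron transfer flavoprotein (Etfa, Etfb) with its dehydrogenase (Etfdh) passes the electrons on to the respiratory chain. STAT3 is a transcription factor switched on by cytokine and growth factor receptors.

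Expression was measured with Illumina bead arrays in 6 mouse cell lines derived from tumours, 3 labelled as carrying constitutively active STAT3 and 3 as carrying wild-type STAT3, with 2 replicate arrays for each line. All lines grew untreated in RPMI medium with foetal calf serum. The tissue of the tumours and the way the active form was introduced are not stated in the labels, and the labels do not say whether replicate arrays stand for separate cultures. Where a p-value rests on arrays, the spread behind it may be technical. Each array reads the bulk RNA of a line, so fewer cells with a transcript and less of it per cell cannot be told apart. The question was whether, and in which lines, the genes of this pathway differed in transcript level. Values are log2 signals after background correction and quantile normalization, given as the mean of the 2 arrays of a line. Levels are compared within a probe only, because a probe's brightness also depends on its sequence.

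Between 11002 and 12798 probes were detected per array, and replicate arrays correlated at 0.993 to 0.998 across tested genes. The brightest raw signal was 38552 to 44974 with active STAT3 and 30306 to 34189 with wild-type STAT3, so the upper end of the scale moved with the genotype before normalization. Its part in the results was not tested. Of 11 epithelial markers 8 were detected on all arrays, among them Krt8 and Krt18, whereas Epcam and Krt5 were detected on none. Markers of tissues that burn or store much fat were mostly silent: 7 of 9 adipocyte markers (such as Adipoq, Plin1 and Fabp4), 7 of 8 hepatocyte markers (such as Alb and Ttr) and 8 of 9 muscle markers (such as Ckm and Myh4) were below detection throughout. Also below detection throughout were 5 of 8 leukocyte, 7 of 9 endothelial and 5 of 11 mesenchymal markers. The mesenchymal list was thus not mostly silent, with Vim, Pdgfra and Fn1 detected on all arrays, as was Cd14 of the leukocyte list. The summed log2 signal of the 9 adipocyte markers was 44.8 to 45.6 in constitutively active lines and 44.7 to 45.4 in wild-type lines. Only the endothelial sum separated the genotypes, at 50.9 to 51.7 in constitutively active and 49.5 to 50.7 in wild-type lines, with Kdr and Flt1 detected on all arrays and Pecam1 and Cdh5 on none, and its part in the results was not tested.

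A further 8 members were not detected on any array by any of their probes, a detected probe being one with a detection p under 0.01. They were Cpt1a, the enzyme of the carnitine shuttle that limits entry into mitochondria, Acsl3, Hadh (the hydroxyacyl-CoA dehydrogenase of medium and short chains), the matrix thioesterase gene Acot2, and the peroxisomal genes Acox3, Ehhadh, Hsd17b4 and Pecr. A missing signal on these arrays is not evidence that the transcript was absent: 23 of the 56 probes were detected nowhere, and for Hadha, Cpt2, Etfdh and Crat a silent probe stood beside another probe that was detected on all 12 arrays. Decr1, which encodes the dienoyl-CoA reductase needed for unsaturated fatty acids, was detected on both arrays of constitutively active lines 2 and 3, on no array of constitutively active line 1 and on 1 of 6 wild-type arrays. That left it out of the tested set, which required both arrays of at least 3 lines. Its line means were 5.67, 6.75 and 6.30 in constitutively active lines 1 to 3 and 4.97, 5.98 and 5.43 in wild-type lines 1 to 3. The signal was therefore at least 1.34-fold brighter in constitutively active line 2 than in line 1, where it was not above background.

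Between genotypes no member of the pathway passed the test. The median log2 fold change, constitutively active minus wild-type, was -0.051 over the 19 members and 0.012 over all 7306 genes, and 13 members lay below 0, where 47.5% of all genes did. The test was limma's, of 3 lines against 3, and after Benjamini-Hochberg adjustment at 0.05 it passed 0 of the 19 members and 0 of the 7306 genes (0% called). Without Hadhb, 2 of 18 members (11.1%), Hsd17b10 and Acadsb, had an unadjusted p under 0.05, both with lower signal in the constitutively active lines. Over all genes 3.59% had such a p with lower and 2.03% with higher signal there, 5.61% in all. With the line as a random block 0 members passed, and with the 12 arrays taken as independent 1 did, Hadhb, whose difference was known when the list was made. The direction count depends on the scaling: with median scaling the median of all genes moved to 0.21 and 7 members lay below 0, while 13 of 19 lay below the median of all genes under either scaling.

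**Figure D1:**
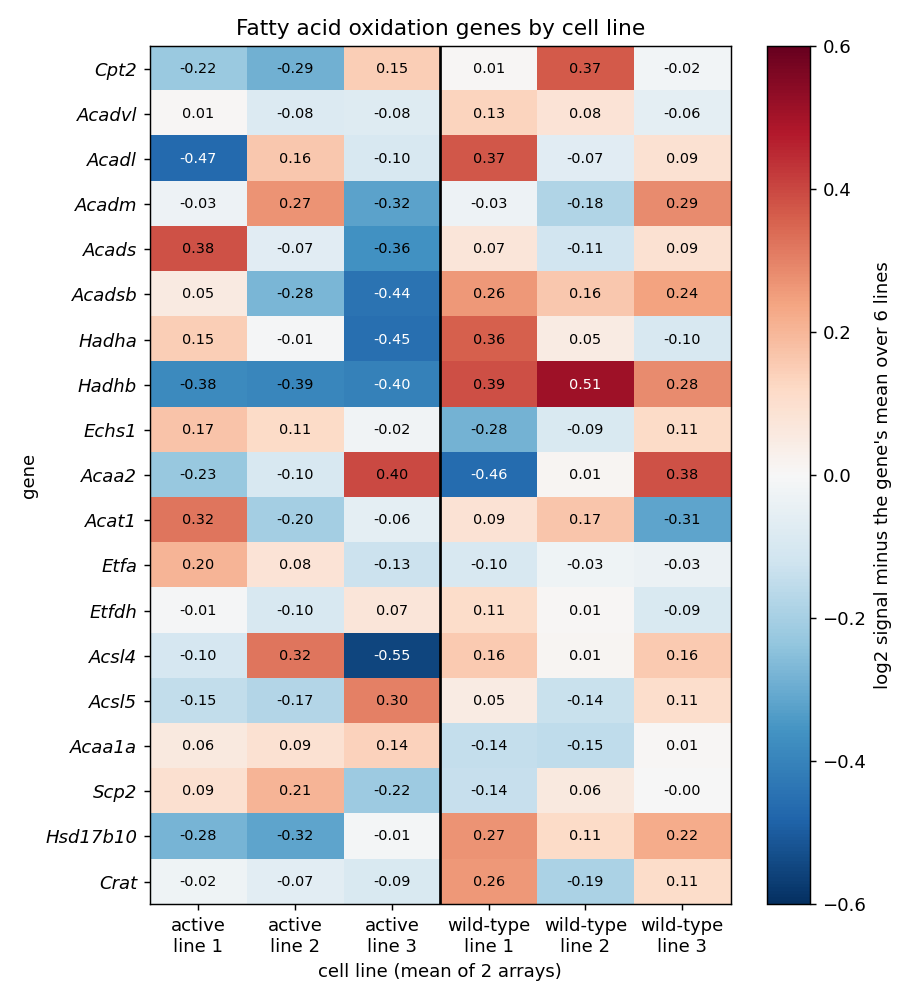
Line means of the 19 tested members (rows) in 3 constitutively active lines (left) and 3 wild-type lines (right), each cell the log2 signal minus the gene's mean over the 6 lines. Hadhb lies at -0.38, -0.39 and -0.40 on the left and at 0.39, 0.51 and 0.28 on the right, while Acaa2, Acadm, Acsl4 and Hadha vary mainly between lines of one genotype.

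The known difference at the trifunctional protein was carried by 1 of 2 kept Hadhb probes. For Hadhb, the subunit with the thiolase activity, the brighter probe ILMN_1230454 read 8.51, 8.50 and 8.49 in constitutively active lines 1 to 3. The wild-type lines 1 to 3 read 9.28, 9.40 and 9.18. All 6 arrays of constitutively active lines, between 8.33 and 8.69, lay below all 6 wild-type arrays, between 9.11 and 9.55. The mean was 8.50 ± 0.01 with active STAT3 and 9.29 ± 0.11 with wild-type STAT3 (SD, n = 3 each), 1.72-fold higher in wild-type. The other probe of Hadhb, ILMN_1218179, did not repeat this separation. It read 7.66, 7.60 and 7.58 in constitutively active lines and 7.76, 7.58 and 7.91 in wild-type lines, ranges that overlapped, with a log2 fold change of -0.14 ± 0.13 (SE, limma adjusted p over all probes = 0.926). On that probe the arrays of constitutively active line 1 read 7.83 and 7.49, further apart than the means of the genotypes. Both probes are annotated to the same RefSeq transcript, and their positions on it were not analysed here.

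Hadha, which encodes the subunit with the hydratase and dehydrogenase activities, did not follow the brighter Hadhb probe. Its detected probe read 7.63, 7.48 and 7.04 in constitutively active lines 1 to 3. In wild-type lines 1 to 3 it read 7.84, 7.54 and 7.39. The ranges overlapped, and the log2 fold change was -0.21 ± 0.20 (SE, limma adjusted p = 0.932). That value depended on single lines, and was -0.033 without constitutively active line 3 and -0.080 without wild-type line 1. Hadha instead differed among lines of each genotype (limma F test, adjusted p = 0.00135 among constitutively active and 0.0122 among wild-type lines), where the Hadhb probe did not pass (0.991 and 0.426).

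Hadha and Hadhb are divergent neighbours, which is why their promoter windows are shown. In RefSeq (GRCm38.p6) the windows of 250 bases before to 50 bases after each annotated start share 228 bases, and the starts lie 273 bases apart on opposite strands of chromosome 5. Hsd17b10 and Acadsb, the other members with lower signal in all constitutively active lines, are shown for comparison. Capitals mark matches to TTCNNNGAA, the palindrome that STAT proteins are known to bind, searched on both strands (its reverse complement is itself).
Hadhb (chr5:30155003-30155302, plus strand): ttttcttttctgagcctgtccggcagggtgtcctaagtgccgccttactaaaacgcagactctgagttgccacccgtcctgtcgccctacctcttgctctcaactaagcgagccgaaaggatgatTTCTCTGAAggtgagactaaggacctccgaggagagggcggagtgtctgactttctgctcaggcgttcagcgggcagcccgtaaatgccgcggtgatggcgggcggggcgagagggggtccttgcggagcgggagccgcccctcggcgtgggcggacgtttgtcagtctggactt
Hadha (chr5:30154931-30155230, minus strand): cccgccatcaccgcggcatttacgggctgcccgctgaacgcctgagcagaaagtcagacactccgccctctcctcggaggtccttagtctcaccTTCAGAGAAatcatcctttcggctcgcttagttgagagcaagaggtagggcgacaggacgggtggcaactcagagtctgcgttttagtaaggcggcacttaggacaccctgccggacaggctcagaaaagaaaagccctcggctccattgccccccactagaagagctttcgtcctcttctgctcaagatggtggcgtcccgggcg
Hsd17b10 (chrX:152001646-152001945, plus strand): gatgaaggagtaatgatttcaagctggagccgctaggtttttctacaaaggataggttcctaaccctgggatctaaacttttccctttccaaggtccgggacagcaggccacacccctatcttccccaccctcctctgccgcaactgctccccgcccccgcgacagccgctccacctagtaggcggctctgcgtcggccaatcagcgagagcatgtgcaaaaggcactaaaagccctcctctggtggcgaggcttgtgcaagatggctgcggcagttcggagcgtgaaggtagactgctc
Acadsb (chr7:131410351-131410650, plus strand): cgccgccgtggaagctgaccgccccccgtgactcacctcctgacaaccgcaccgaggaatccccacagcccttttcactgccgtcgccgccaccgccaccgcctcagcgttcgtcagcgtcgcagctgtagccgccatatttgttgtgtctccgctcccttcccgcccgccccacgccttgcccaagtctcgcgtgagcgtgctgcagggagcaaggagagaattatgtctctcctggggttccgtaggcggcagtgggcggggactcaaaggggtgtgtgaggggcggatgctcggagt

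The Hadhb and Hadha windows each held 1 match, and it is the same 9 base pairs read from either strand, chr5:30155128-30155136. Over 26 members with a window, 27 windows in all, the palindrome was found in 3 (11.1%), those of Hadha, Hadhb and Cpt2. Of all 32851 windows of that length 8.30% held it, so the share is close to the background, and Hadha and Hadhb count 1 match between them. The windows of Hsd17b10 and Acadsb held none. The element TCAAGGTCA, bound by ERR receptors that drive this pathway in oxidative tissues, was found on either strand in 0 of the 27 windows and in 0.423% of all windows. A match is a run of letters, not a bound site, and a missing match says only that these letters are not in the window.

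Besides Hadhb, 3 members had lines of the genotypes that did not overlap, 2 of them lower and 1 higher in the constitutively active lines. With Hadhb that is 3 of 19 lower (15.8%, against 6.47% of all genes) and 1 of 19 higher (5.26%, against 5.97%), and without Hadhb 2 of 18 lower (11.1%). Hsd17b10, which encodes a mitochondrial dehydrogenase of short branched-chain hydroxyacyl-CoAs that also serves mitochondrial tRNA processing, read 8.98, 8.94 and 9.25 in constitutively active lines. Its wild-type lines read 9.53, 9.37 and 9.48. The gap was narrow beside the arrays, since the 2 arrays of wild-type line 1 read 9.82 and 9.23, and the log2 fold change was -0.40 ± 0.13 (SE, limma adjusted p = 0.854). Acadsb, the dehydrogenase of short branched-chain acyl-CoAs from isoleucine, read 7.11, 6.78 and 6.62 in constitutively active lines. Its wild-type lines read 7.32, 7.22 and 7.30, and the log2 fold change was -0.44 ± 0.15 (SE, limma adjusted p = 0.854). Single arrays overlapped, at 7.22 for an array of constitutively active line 1 and 6.99 for one of wild-type line 2. Acaa1a, a peroxisomal thiolase, was the member higher in all constitutively active lines, at 12.61, 12.64 and 12.69. The wild-type lines read 12.41, 12.40 and 12.56, a log2 fold change of 0.19 ± 0.10 (SE, limma adjusted p = 0.883). Acaa1a has a close copy, Acaa1b, and whether the probe tells them apart is not known here. With median scaling Hadhb was the only member lower in all constitutively active lines, Hsd17b10 and Acadsb overlapped, and Acaa1a and Etfa were the 2 higher ones.

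**Figure D2:**
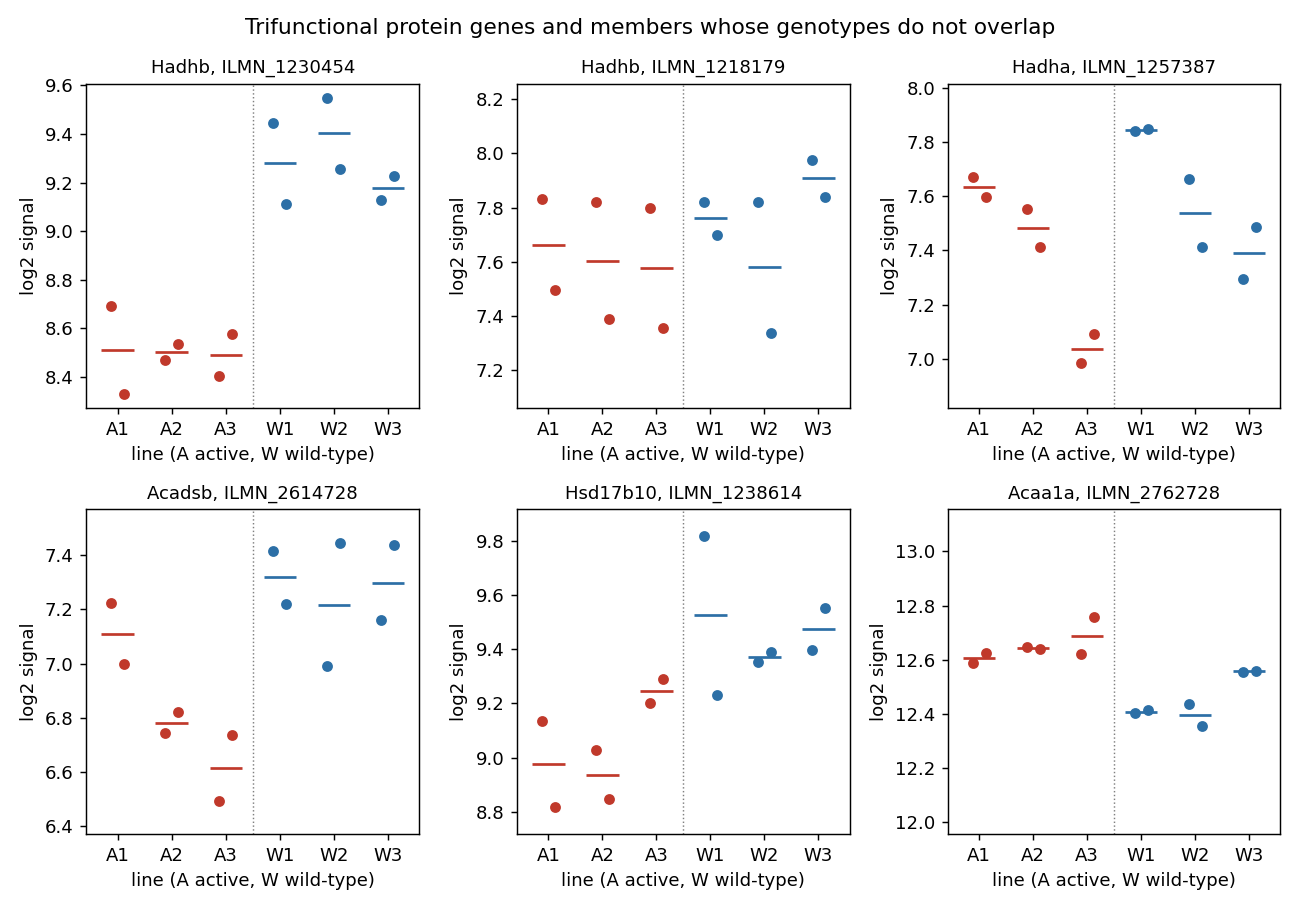
Log2 signal of each array (points) and mean of each line (bars) for both kept Hadhb probes, the kept Hadha probe, Acadsb, Hsd17b10 and Acaa1a, with constitutively active lines A1 to A3 on the left and wild-type lines W1 to W3 on the right of each panel. The vertical scale differs between panels. Line means do not overlap between genotypes for ILMN_1230454 of Hadhb, Acadsb, Hsd17b10 and Acaa1a, and overlap for the other Hadhb probe and Hadha.

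The remaining 15 members overlapped between genotypes, with log2 fold changes from -0.27 (Acadl) to 0.18 (Echs1) and no unadjusted p under 0.216. Among the dehydrogenases of straight chains, Acadvl for very long chains averaged 11.20 ± 0.05 with active STAT3 and 11.30 ± 0.10 with wild-type STAT3 (SD, n = 3 each), and Acadl for long chains 7.73 ± 0.32 with active STAT3 and 7.99 ± 0.22 with wild-type STAT3. Cpt2, the inner enzyme of the carnitine shuttle, averaged 7.97 ± 0.23 with active STAT3 and 8.21 ± 0.22 with wild-type STAT3. Etfdh, which hands electrons to ubiquinone, differed by -0.018 and Acsl5 by -0.013 on the log2 scale.

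The probes gave a further pattern, because 8 members had more than 1 kept probe. Of the 31 kept probes 6 were lower in all constitutively active lines (19.4%, against 6.96% of all kept probes) and 1 was higher (3.23%, against 5.74%), probes of 1 gene sharing their transcript. Without the Hadhb probe known when the list was made, 5 of 30 were lower (16.7%). With median scaling 3 were lower and 2 higher. None passed the adjusted threshold over all probes, where 0.00858% did, and of those 30 probes 4 had an unadjusted p under 0.05 (13.3%, against 3.65% of all kept probes with lower signal), 1 each of Acadsb, Hsd17b10, Etfa and Acsl4. The 5 lower probes include 2 of the 3 probes of Etfa, the alpha subunit of the electron transfer flavoprotein. The probe ILMN_1237075 averaged 9.34 ± 0.11 with active STAT3 and 9.90 ± 0.14 with wild-type STAT3 (SD, n = 3 each), a log2 fold change of -0.55 ± 0.13 (SE, limma adjusted p = 0.843). The probe ILMN_2699167 averaged 10.02 ± 0.07 with active STAT3 and 10.29 ± 0.10 with wild-type STAT3. The brightest Etfa probe, which stood for the gene in the test, ran the other way, at 13.74 ± 0.17 with active STAT3 and 13.63 ± 0.04 with wild-type STAT3. Across the 6 lines it correlated at -0.29 and -0.63 with the other probes, which correlated at 0.82 with each other (Pearson, a description over 6 points).

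Acsl4, a synthetase that prefers arachidonate, showed the same kind of disagreement. Its probe ILMN_1259795 read 6.90, 6.78 and 6.51 in constitutively active lines and 7.24, 7.21 and 7.12 in wild-type lines. Its brightest probe read 7.87, 8.29 and 7.42 in constitutively active lines and 8.13, 7.98 and 8.13 in wild-type lines, which overlapped. The dimmest kept probe was detected on 9 of 12 arrays and on none of constitutively active line 3, so it gives no full comparison. For Acsl5, another long-chain synthetase, the probes also differed, at -0.013 for the bright and -0.45 for the dim one. By contrast the probes of Acadm (r = 0.96) and of Scp2 (r from 0.72 to 0.91) moved together across the 6 lines.

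**Figure D3:**
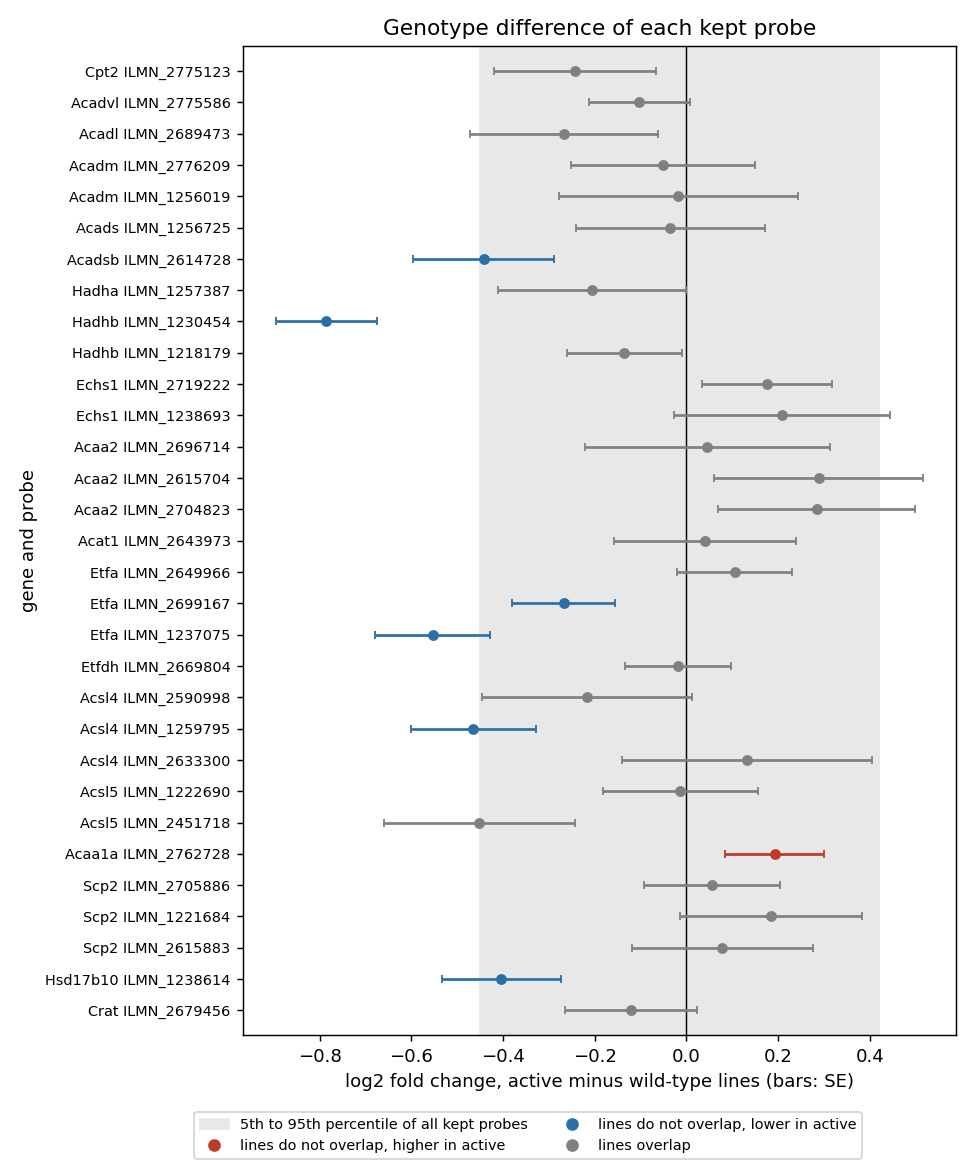
Log2 fold change, constitutively active minus wild-type lines, of the 31 kept probes of 19 members, with standard errors and the range between the 5th and 95th percentiles of all kept probes in grey (-0.45 to 0.42). The Hadhb probe ILMN_1230454 at -0.79 lies furthest out, and probes of Hadhb, Etfa, Acsl4 and Acsl5 lie apart from other probes of the same gene.

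**Figure D4:**
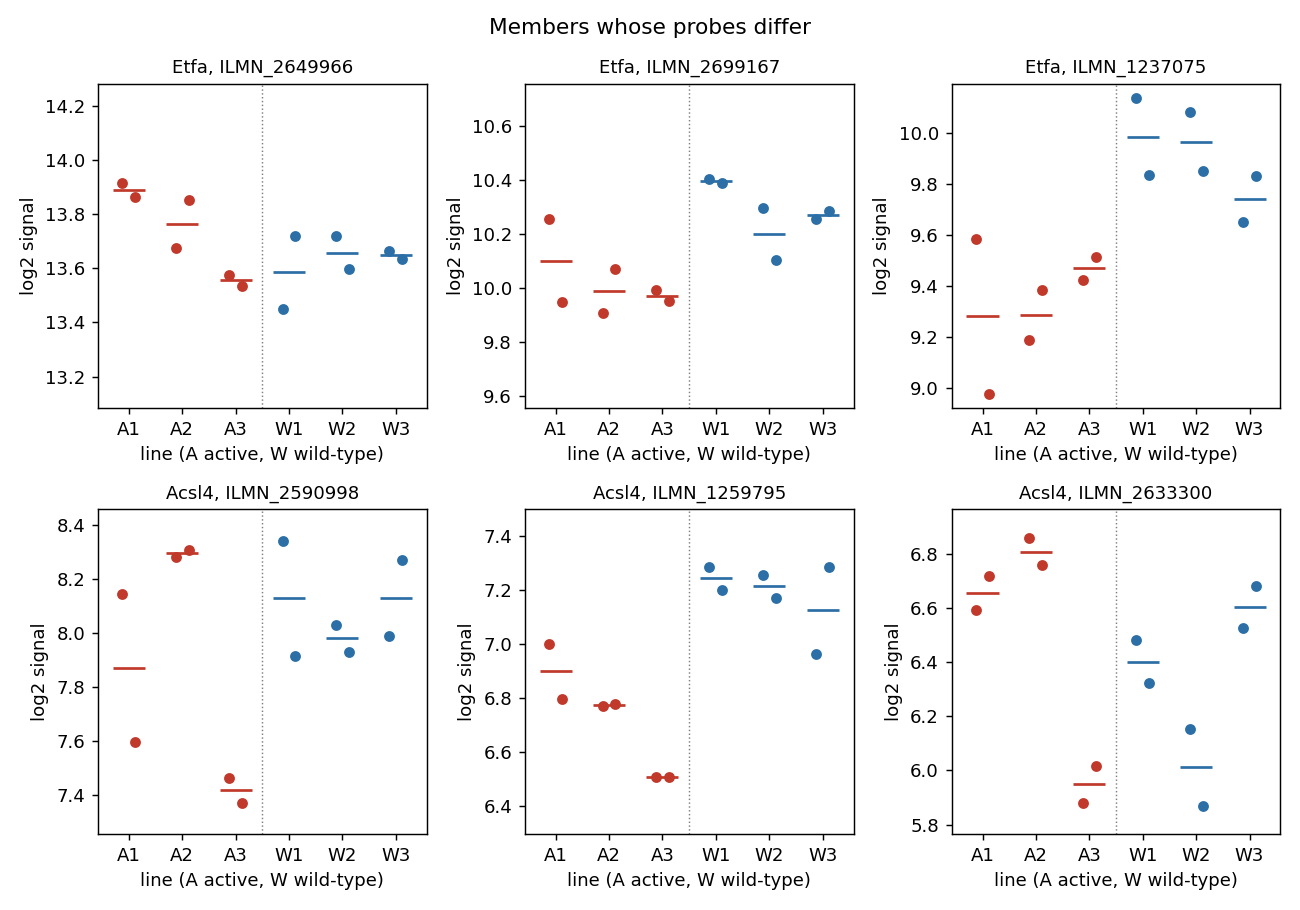
Log2 signal of each array (points) and mean of each line (bars) for the 3 kept probes of Etfa (top) and of Acsl4 (bottom), with constitutively active lines A1 to A3 on the left and wild-type lines W1 to W3 on the right. The vertical scale differs between panels. The dimmer Etfa probes and ILMN_1259795 of Acsl4 separate the genotypes, and the brightest probe of each gene does not.

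Lines of the same genotype differed from each other in these genes. By the median range, members varied about as widely as all genes among constitutively active lines and less widely among wild-type lines. Lines were compared by a moderated F test against the spread of replicate arrays, so its p-values rest on arrays alone. Among the constitutively active lines 11 of 19 members passed (57.9%, against 60.9% of all genes), and among the wild-type lines 6 of 19 (31.6%, against 46.4%). With median scaling the counts were 6 and 3, and without the first array of wild-type line 3 the wild-type count was 3. The median range of line means was 0.43 over the members and 0.41 over all genes among constitutively active lines, and 0.23 and 0.32 among wild-type lines. None of the 19 tested members had a range above 1 log2 unit, where 13.2% of all genes had one among constitutively active and 9.88% among wild-type lines. Of the variation of the members 29.1% lay between genotypes (15.3% for all genes), 52.0% among lines sharing a genotype (78.9%) and 18.9% between replicate arrays (5.75%). Without Hadhb the shares were 18.2% between genotypes, 61.0% among lines sharing a genotype and 20.7% between replicate arrays. Lines that differ put some variation between genotypes even without a genotype difference, and that part was not estimated.

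Constitutively active line 3 accounted for most of the member differences within its genotype, as it did over all genes, so this was not particular to the members. Against line 1 it was lower for 6 of 19 members (23.0% of all genes) and higher for 3 (23.7%). The lower ones were Acadm, Acads, Acadsb, Hadha, Etfa and the peroxisomal thiolase and lipid carrier gene Scp2, and the higher ones were Cpt2, Acaa2 and Acsl5. Against line 2 it was lower for 4 (23.4%), Acadm, Hadha, Acsl4 and Scp2, and higher for Cpt2, Acaa2 and Acsl5 (26.9%). Between constitutively active lines 2 and 1, line 2 was lower for 2 members, Acads and Acat1 (13.6%), and higher for 0 (14.8%). The other kept probes of Etfa and Acsl5 did not repeat these calls (limma F test, adjusted p over all probes 0.546 and 0.559 for Etfa, 0.108 for Acsl5). On the Etfa probe ILMN_1237075 line 3 was the highest, at 9.47 against 9.28 in lines 1 and 2. The dim Acsl5 probe passed among wild-type lines instead (4.79e-04), at 7.07, 6.37 and 6.94. With median scaling the F test among constitutively active lines no longer passed Cpt2 (0.564), Etfa (0.527), Scp2 (0.0511), Acaa2 (0.0531) or Acsl5 (0.171).

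The widest range among constitutively active lines belonged to Acsl4, at 7.87, 8.29 and 7.42 in lines 1 to 3 (1.83-fold between lines 3 and 2, limma adjusted p = 0.00355). Its dimmest kept probe was not detected in line 3 and was at least 1.46-fold brighter in line 2. Acads, the dehydrogenase of short chains, followed at 8.23, 7.78 and 7.49 (1.68-fold, adjusted p = 0.00174), whereas the wild-type lines read 7.93, 7.74 and 7.95 and did not pass (0.360). Acadm, the dehydrogenase of medium chains, read 10.35, 10.65 and 10.06 in constitutively active lines and 10.35, 10.20 and 10.67 in wild-type lines, and differed in both genotypes (adjusted p = 0.00174 and 0.0101). Its other probe did the same (0.00101 and 0.00917). Acadm was thus high in constitutively active line 2 and wild-type line 3 and low in constitutively active line 3 and wild-type line 2. Scp2 read 11.90, 12.01 and 11.59 in constitutively active lines, and each of its 3 probes passed there (adjusted p over all probes from 5.87e-04 to 0.00272, where 59.7% of all probes passed).

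Acaa2, the thiolase for medium and long chains in mitochondria, had the widest range among wild-type lines. It read 10.07, 10.55 and 10.91 in wild-type lines 1 to 3 (1.79-fold, limma adjusted p = 5.21e-04), and all 3 pairs of wild-type lines differed. Its other probes were highest in wild-type line 3 too, at 8.74 against 7.96 and 8.06 in lines 1 and 2 for one and at 8.68 for the other, and passed as well (adjusted p over all probes 6.07e-04 and 0.00200, where 43.8% of all probes passed). Among constitutively active lines the brightest probe read 10.30, 10.44 and 10.93 (adjusted p = 0.00203), with line 3 again high, but the other probes did not pass (0.166 and 0.480). The other wild-type differences were Cpt2, high in line 2 (8.46, against 8.10 and 8.08 in lines 1 and 3, adjusted p = 0.0142), Crat, the carnitine acetyltransferase, low in line 2 (8.29, against 8.74 and 8.59, 0.0148), and Echs1, the hydratase of short chains, low in line 1 (9.98, against 10.17 and 10.38, 0.0129). The dimmer kept Echs1 probe also passed (limma F test, adjusted p over all probes = 0.0176) but was low in line 2. It read 7.10, 6.65 and 7.14 in wild-type lines 1 to 3. By pairs, wild-type line 2 was higher than line 1 for Cpt2 and Acaa2 (15.7% of all genes) and lower for Hadha and Crat (18.2%). Wild-type line 3 was higher than line 1 for Echs1 and Acaa2 (as for 879 of all genes) and lower for Hadha (10.3%), and against line 2 it was higher for Acadm and Acaa2 (19.1%) and lower for Cpt2 and Acat1 (18.2%). Acat1 was not detected in wild-type line 3 and was at least 1.22-fold brighter in line 2.

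Several of these calls were lost when 1 array was left out. Among constitutively active lines, Acadsb (range 0.49, adjusted p = 0.0430) was lost without any of 7 arrays, with adjusted p up to 0.232 without the first array of constitutively active line 1. Acat1, the acetoacetyl-CoA thiolase (6.65, 6.13 and 6.28 in lines 1 to 3, detected on 4 of those 6 arrays, adjusted p = 0.0334), was lost without any of 4 arrays, up to 0.287 without the second array of constitutively active line 1, and Acsl5 (12.80, 12.77 and 13.25, adjusted p = 0.00521) without the second array of line 3 (0.0670). Among wild-type lines, Acadm (0.113), Hadha (0.0592) and Echs1 (0.0951) were lost without the first array of line 3, Cpt2 (0.102) and Crat (0.0872) without the first array of line 2, Hadha (0.0571) and Echs1 (0.0658) without the first array of line 1, and Hadha (0.0623) without the second. Beyond the 5 losses with median scaling already given, Acat1 (0.115) did not pass among constitutively active lines under it and Acadl gained a call (0.00108), and Hadha (0.282), Echs1 (0.180) and Cpt2 (0.825) did not pass among wild-type lines. In the authors' deposited log2 values Acat1 (0.0779) and Acadsb (0.0726) did not pass. Calls for Acsl4, Acads, Acaa2, Hadha and Acadm among constitutively active lines and for Acaa2 among wild-type lines held whichever array was left out. The calls of Cpt2, Etfa and Scp2 among constitutively active lines were not followed in this way.

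**Figure D5:**
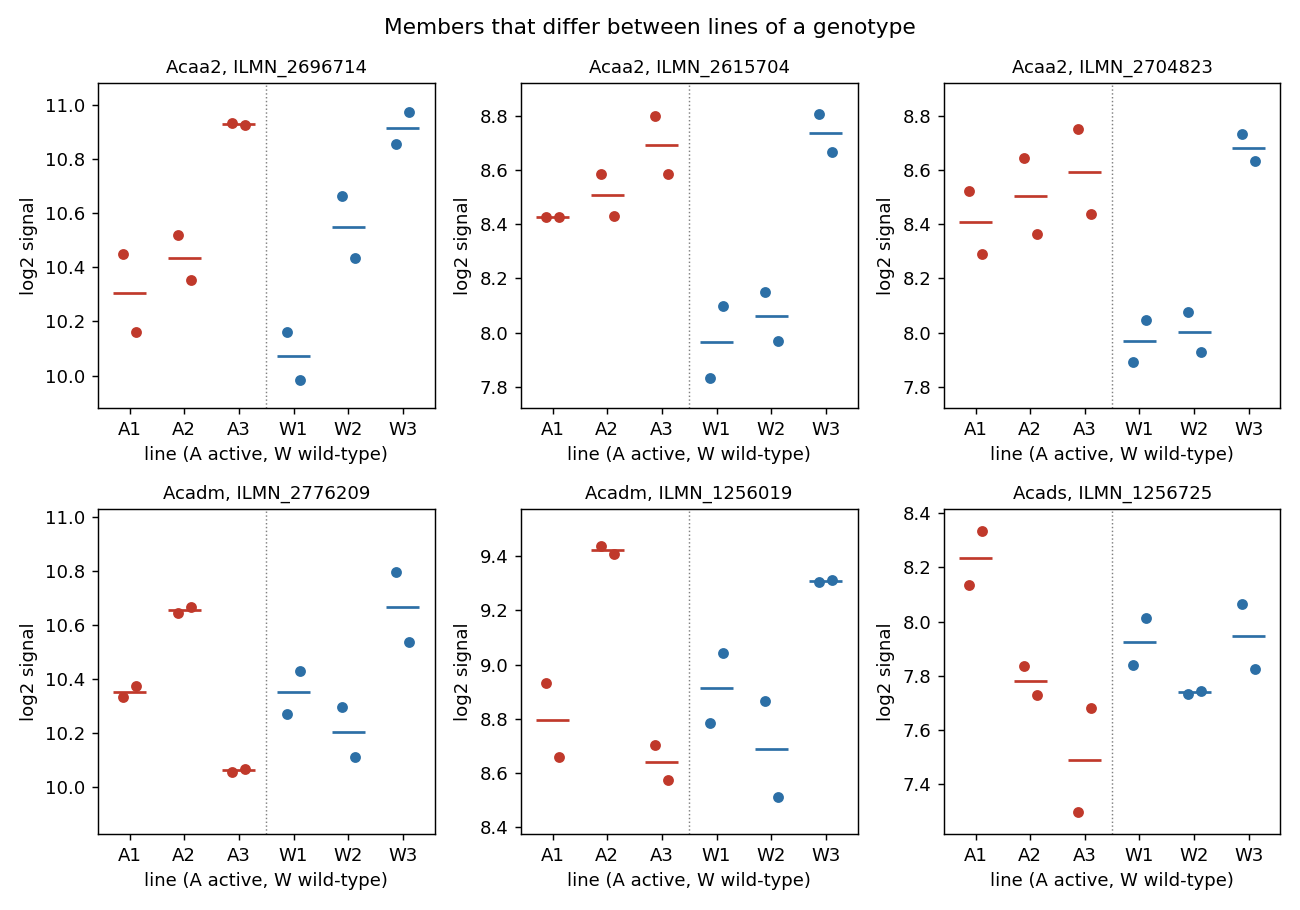
Log2 signal of each array (points) and mean of each line (bars) for 3 probes of Acaa2, both probes of Acadm and the probe of Acads, with constitutively active lines A1 to A3 on the left and wild-type lines W1 to W3 on the right. The vertical scale differs between panels. Acaa2 is highest in wild-type line 3 among wild-type lines on each of its probes, and Acadm is highest in constitutively active line 2 and wild-type line 3 within each genotype on both.

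Genes around the pathway were read in 8 lists, counted here where tested, and no member of any passed the genotype test (limma, adjusted over all genes). In these lists line means did not overlap for Ivd, Echdc2, Prkag1, Stk11, Dlst and Vdac1, higher in constitutively active lines (as for 5.97% of all genes). Nor did they for Slc25a17, Lipa, Plin3, Tfam, Med1, Fasn, Mlycd, Pex7 and Vdac2, lower there (as for 6.47% of all genes). Of 14 other genes of fatty acid and branched-chain oxidation 8 lay above and 6 below 0 (median 0.0040). Ivd, the isovaleryl-CoA dehydrogenase, averaged 11.03 ± 0.21 with active STAT3 and 10.60 ± 0.08 with wild-type STAT3 (SD, n = 3 each), opposite in direction to Acadsb, while Acad9, an assembly factor of complex I, averaged 8.30 ± 0.10 with active STAT3 and 8.64 ± 0.21 with wild-type STAT3 and Slc25a17, a peroxisomal carrier, 8.66 ± 0.12 with active STAT3 and 9.01 ± 0.20 with wild-type STAT3. Of 14 genes of fatty acid uptake and storage 6 lay above and 8 below (median -0.060). Lipa, the lysosomal acid lipase, averaged 7.83 ± 0.14 with active STAT3 and 8.59 ± 0.08 with wild-type STAT3 and did not overlap, the lipid droplet protein gene Plin3 8.75 ± 0.24 with active STAT3 and 9.18 ± 0.22 with wild-type STAT3, and Acbd3 10.09 ± 0.17 with active STAT3 and 10.40 ± 0.23 with wild-type STAT3.

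Of 14 transcription factors and coactivators of the pathway 6 lay above and 8 below 0 (median -0.048). Tfam, which maintains and transcribes mitochondrial DNA, averaged 9.12 ± 0.11 with active STAT3 and 9.56 ± 0.10 with wild-type STAT3 without overlap, as did Med1, a Mediator subunit that binds nuclear receptors, at 6.86 ± 0.16 with active STAT3 and 7.40 ± 0.27 with wild-type STAT3, while Ncoa1 overlapped. Of 9 genes of malonyl-CoA and AMPK control 7 lay above and 2 below (median 0.032). The 2 lower ones both encode enzymes that use up malonyl-CoA, the inhibitor of carnitine-dependent entry: Fasn, which consumes it in fatty acid synthesis, averaged 9.09 ± 0.15 with active STAT3 and 9.56 ± 0.12 with wild-type STAT3, and Mlycd, which breaks it down, 7.32 ± 0.13 with active STAT3 and 7.76 ± 0.22 with wild-type STAT3. Prkag1, a subunit of AMPK, averaged 10.76 ± 0.11 with active STAT3 and 10.56 ± 0.07 with wild-type STAT3. The limma adjusted p was 0.854 for Fasn, Mlycd, Tfam and Med1.

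Of 18 genes of the citrate cycle and mitochondrial mass 6 lay above and 12 below 0 (median -0.082), where Vdac2 averaged 10.09 ± 0.48 with active STAT3 and 10.67 ± 0.07 with wild-type STAT3, Phb2 10.01 ± 0.30 with active STAT3 and 10.31 ± 0.04 with wild-type STAT3, and Hspd1 10.62 ± 0.31 with active STAT3 and 11.00 ± 0.33 with wild-type STAT3. Of 16 peroxisome genes 8 lay on each side (median 0.0020), with Pex7, an import receptor, at 7.38 ± 0.16 with active STAT3 and 7.89 ± 0.26 with wild-type STAT3, Pxmp4 at 5.85 ± 0.66 with active STAT3 and 6.53 ± 0.11 with wild-type STAT3 (detected on 2 arrays with active and 6 with wild-type STAT3) and Pex14 at 8.17 ± 0.28 with active STAT3 and 8.52 ± 0.14 with wild-type STAT3. Of 4 genes of ketone body and acetyl-CoA handling 2 lay on each side (median 0.20), and Acss1, a mitochondrial acetyl-CoA synthetase, read 9.63, 9.70 and 8.04 in constitutively active lines against 9.52, 9.48 and 9.68 in wild-type lines, so that it was low in constitutively active line 3 alone. Acss2 averaged 8.37 ± 0.86 with active STAT3 and 7.95 ± 0.38 with wild-type STAT3, and Bdh1 6.60 ± 0.88 with active STAT3 and 6.02 ± 1.42 with wild-type STAT3, where it was detected on 4 arrays with active and 2 with wild-type STAT3. Of 14 PPAR-responsive genes with a probe 2 were tested, Plin2 at 11.28 ± 0.42 with active STAT3 and 10.87 ± 0.68 with wild-type STAT3 and Txnip at 12.58 ± 0.61 with active STAT3 and 12.34 ± 0.44 with wild-type STAT3.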

How the data were processed

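Per the file headers, the deposited raw table holds a linear intensity and a detection fraction (0 to 1) for each probe and array. The authors' deposited log2 values of the same arrays (medians 7.01 to 7.02, in the order of the raw signals) served as an alternative, and their normalization is not stated there. BeadStudio 3.1.7 and lumi are named per the submitters' processing notes.

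The detection fraction increases with signal, so 1 minus it was taken as the detection p. Intensities were background-corrected with these p-values (offset 16), quantile normalized and logged with neqc of limma 3.58.1 in R 4.3.3. A probe was kept if 3 or more of the 6 lines had it detected (p under 0.01) by each array. Symbols came from GEO's platform annotation, in which 29976 probes have 1 symbol, 10 several and 16646 are unnamed here, and 29921 were found in the RefSeq gene table. The brightest kept probe stood for a gene.

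Replicate arrays were averaged, and 3 lines compared with 3 (lmFit, eBayes, two-sided, Benjamini-Hochberg over all genes, or over all probes for values of single probes). By exact permutation this design allows no p below 0.1. Lines within a genotype were compared by moderated F tests and pairwise contrasts on 12 arrays. Where a line was undetected, folds are lower bounds against the higher of its own signal and the lowest detected signal on each array. With 2 arrays a line, their number limits the precision. The code was tested on simulated data with planted differences larger than any seen for the members, which does not measure power at the sizes seen here.

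Members and lists were chosen with earlier results of these data known. Values are given for Hadhb, Hadha, members whose lines do not overlap and, per genotype, the 8 members with the widest range past the F threshold, and from related lists the 3 smallest p-values. Probes that differ were described after their values were seen.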

Additional observations from a re-analysis of the deposited data

How the results depend on the processing

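Median scaling moved the median log2 fold change to 0.11 for the members and 0.21 for all genes. Under it 7 members lay below 0, 1 member was lower and 2 higher in all constitutively active lines, as were 3 and 2 of their probes, and over all genes 1661 were higher and 105 lower without overlap, against 436 and 473 with quantile normalization. The F tests then passed 2746 genes and 6 members among constitutively active lines and 1778 genes and 3 members among wild-type lines, against 4447 and 3393 genes with quantile normalization. The mean of all kept probes gave a member median of -0.12. The deposited log2 values called 0 probes against 1, and taking the 12 arrays as independent called 156 genes and 1 member between genotypes. Leaving out 1 line at a time gave 0 to 2 genes past the threshold (2 without wild-type line 2) and 0 members. The member median was then -0.11 to -0.060, with 11 to 13 members below 0. In all remaining constitutively active lines 3 to 5 members were lower (5 without constitutively active line 2 or 3). In those lines 1 to 3 members were higher (3 without constitutively active line 3, 2 without wild-type line 3). With 1 line fewer the genotypes separate more easily, and over all genes 610 to 955 were lower and 710 to 930 higher. Leaving out 1 array gave 8 to 12 members past the F test among constitutively active lines, against 3962 to 4488 of all genes. Among wild-type lines it gave 3 to 7 members, against 2565 to 3457 of all genes. The log2 fold changes of Hadhb (-0.84 to -0.46), Hadha, Acadsb, Hsd17b10 and Acaa1a kept their sign under all 15 alternatives each. The probe filters and the fits on 12 arrays returned the main fold changes unchanged, so they add no separate check of the sign. Hadhb was listed with its difference known, and Acadsb, Hsd17b10 and Acaa1a were named because their lines did not overlap. Replicate numbers did not pair arrays across lines: deviations of same-numbered arrays correlated between -0.26 and 0.31, and over 0.1 in 2 of 15 pairs of lines. With the replicate number as a block 0 members passed between genotypes, and 10 and 6 passed among constitutively active and wild-type lines, and no F test call of the 8 and 6 members with the widest ranges changed. The cause of these shifts was not tested. Signals near background limit what Decr1, Acat1 and the undetected members can show.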
